A study of Mus musculus with 29 samples.

Results

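The genes described here are 9 markers of the excitatory neurons of the cerebral cortex, followed in RNA from the caudate nucleus of HdhQ150 mice and wild-type (WT) littermates: Slc17a7, Tbr1, Neurod6, Neurod2, Emx1, Nrn1, Fezf2, Rorb and Cux2. They were chosen by name, as probe sets annotated with exactly 1 symbol equal to a listed gene, and they are 9 of the 19938 genes tested. Each of the 9 had 1 such probe set, so no choice between probe sets was needed. The list serves as a sign of cortical tissue in the dissection, because the caudate lies beneath the cortex and white matter.

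HdhQ150 mice carry an expanded CAG repeat knocked into the mouse huntingtin gene, Htt, and model Huntington's disease. There was 1 array per mouse and a different set of mice at each age, on the strain background given as 129/Ola x C57BL6/J. At 6 months there were 5 HdhQ150 and 5 WT mice, at 12 months 6 HdhQ150 and 5 WT mice, and at 18 months 4 HdhQ150 and 4 WT mice. The labels give 23 females and 6 males, with females alone at 18 months, and they state neither the zygosity of the repeat nor any treatment. The knock-in allele is present in every cell, so cortical neurons carry it as well as striatal ones. Levels are RMA values on the log2 scale, in which 1 unit is a doubling of signal, and levels of different probe sets cannot be set against each other.

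Excitatory neurons of the cortex and hippocampus arise from the dorsal telencephalon and use glutamate, whereas the projection neurons that make up most of the striatum arise from the ventral telencephalon and use GABA. Cortical neurons send dense glutamatergic axons into the caudate, but their cell bodies, which hold most of their RNA, lie outside it. The 9 genes span this lineage. Slc17a7 encodes VGLUT1, which loads glutamate into synaptic vesicles. Tbr1 is a T-box factor of early-born and deep-layer cortical neurons, Neurod2 and Neurod6 are basic helix-loop-helix factors of differentiating and mature excitatory neurons, and Emx1 is a homeobox factor of the dorsal telencephalon. Nrn1 encodes neuritin, a membrane-anchored protein that promotes neurite and synapse growth. Fezf2 is a zinc finger factor that specifies deep-layer neurons projecting below the cortex, Rorb is a nuclear receptor enriched in layer 4, and Cux2 is a homeobox factor of the upper layers.

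RefSeq promoter windows (build GRCm38.p6) were found for 8 of the 9 genes and not for Nrn1. Basic helix-loop-helix factors such as Neurod2 and Neurod6 bind E-boxes. Of the transcription factors among the 9 genes, 3 varied most closely with the vesicular transporter by the test given further on. The 250 bases before the start site are shown for the transporter and these factors. Each runs 5′ to 3′ on the gene's strand, and capitals mark the E-box, CANNTG. The windows lie at chr7:45163671-45163920 on the plus strand for Slc17a7, chr2:61804203-61804452 on the plus strand for Tbr1, chr6:55681264-55681513 on the minus strand for Neurod6 and chr11:98329646-98329895 on the minus strand for Neurod2.
Slc17a7: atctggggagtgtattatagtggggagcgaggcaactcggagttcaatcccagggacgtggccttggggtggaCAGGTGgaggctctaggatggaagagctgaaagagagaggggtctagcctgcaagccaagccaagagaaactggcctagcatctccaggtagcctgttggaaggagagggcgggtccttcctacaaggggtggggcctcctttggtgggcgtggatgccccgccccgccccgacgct
Tbr1: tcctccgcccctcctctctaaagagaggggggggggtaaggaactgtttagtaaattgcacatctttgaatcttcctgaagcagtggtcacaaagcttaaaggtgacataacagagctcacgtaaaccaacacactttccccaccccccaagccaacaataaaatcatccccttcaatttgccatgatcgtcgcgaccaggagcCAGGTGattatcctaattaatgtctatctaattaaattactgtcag
Neurod6: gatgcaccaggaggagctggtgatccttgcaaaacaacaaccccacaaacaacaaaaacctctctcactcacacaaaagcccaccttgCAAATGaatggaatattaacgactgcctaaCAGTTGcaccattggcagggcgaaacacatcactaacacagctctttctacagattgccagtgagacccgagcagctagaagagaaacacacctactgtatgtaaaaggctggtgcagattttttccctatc
Neurod2: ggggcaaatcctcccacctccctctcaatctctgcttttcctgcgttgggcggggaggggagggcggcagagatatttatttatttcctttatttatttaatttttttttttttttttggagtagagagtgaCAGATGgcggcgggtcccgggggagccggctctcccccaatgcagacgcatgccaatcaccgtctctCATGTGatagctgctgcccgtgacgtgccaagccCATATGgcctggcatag

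Slc17a7 and Tbr1 each held 1 E-box, of the letters CAGGTG in both windows, at 177 and 46 bases before the start site. Neurod6 held 2 E-boxes and Neurod2 held 3. An E-box was present in the first listed window of 6 of the 8 genes, with 0 to 3 per window, and in 66.2% of all 32851 windows of this length. The E-box forms CAGATG and CAGCTG, which overlap the general motif by definition, were searched on both strands. CAGATG was found in 1 of the 8 windows, that of Neurod2, and in 14.4% of all windows. CAGCTG was found in 0 of the 8 and in 13.0% of all windows. The T-box half-site core GTGTGA, also searched on both strands, was found in 1 of the 8, that of Neurod6, and in 12.3% of all windows. These matches are a description of the sequences and not of binding.

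Array medians lay between 6.91 and 7.05 and pairs of arrays correlated between 0.918 and 0.992. Mouse WT-454 of the 12-month WT group had the lowest mean correlation with its own group, 0.945. Mouse 1023 of the 6-month HdhQ150 group is a female by its label, yet its Xist level was 5.95. Xist lay at 6.13 or less on every array labelled male and at 11.11 or more on every other array labelled female. The Y-linked gene Eif2s3y measured 8.30 in mouse 1023. It lay at 7.04 or more on every array labelled male and at 4.05 or less on every other array labelled female. By both genes mouse 1023 lay with the labelled males. Several results below are given without these 2 arrays as well. Htt lay between 8.50 and 8.99 on HdhQ150 arrays and between 8.87 and 9.20 on WT arrays. Markers of striatal projection neurons were high throughout, with Ppp1r1b (DARPP-32) between 10.59 and 11.76 and Penk (proenkephalin) between 11.33 and 12.81 over all 29 arrays. Striatal tissue was thus present on every array, and the cortical markers were read on top of it. The striatal markers do not show how much neighbouring tissue an array held. The number of arrays limits the precision.

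Slc17a7 averaged 10.45 over the 29 arrays. At 6 months it measured 10.97, 11.47, 11.46, 11.30 and 10.49 in the HdhQ150 mice, and 10.71, 11.17, 11.57, 11.18 and 11.01 in the WT mice. At 12 months it measured 6.82, 7.44, 8.55, 9.05, 9.91 and 10.33 in the HdhQ150 mice, and 8.84, 8.88, 10.06, 10.12 and 10.79 in the WT mice. At 18 months it measured 10.88, 11.21, 11.41 and 11.60 in the HdhQ150 mice, and 10.78, 11.60, 11.66 and 11.77 in the WT mice. The 12-month mice were low and widely spread in both genotypes, and the 2 lowest arrays of the series were HdhQ150 mice of that age. The 6- and 18-month mice formed a narrow band, and the groups of the 2 genotypes overlapped at each age.

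Tbr1 showed the same arrangement of arrays. At 6 months its level was 8.50, 9.21, 9.02, 8.69 and 8.18 in HdhQ150 mice, and 8.50, 8.81, 9.17, 8.74 and 8.70 in WT mice. At 12 months it was 5.69, 5.92, 6.58, 6.85, 7.40 and 8.14 in HdhQ150 mice, and 6.74, 6.83, 7.71, 7.91 and 8.60 in WT mice. At 18 months it was 8.43, 8.90, 9.13 and 9.27 in HdhQ150 mice, and 8.27, 9.06, 9.13 and 9.52 in WT mice. HdhQ150 mouse 487 was the lowest of the 29 arrays for Tbr1 as for Slc17a7, and mouse WT-401 was the highest for both.

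Nrn1, which is also expressed outside the cortex, followed the same order of ages. At 6 months its level was 8.69, 9.57, 9.48, 9.32 and 8.44 in HdhQ150 mice, and 9.21, 9.32, 9.81, 9.39 and 9.51 in WT mice. At 12 months it was 5.99, 6.13, 6.61, 6.82, 7.35 and 7.94 in HdhQ150 mice, and 6.49, 6.75, 7.47, 7.57 and 8.74 in WT mice. At 18 months it was 8.73, 8.95, 9.36 and 9.90 in HdhQ150 mice, and 8.66, 9.65, 9.79 and 9.85 in WT mice. Every 12-month HdhQ150 mouse lay below every HdhQ150 mouse of the other ages.

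Neurod6 varied widely as well. At 6 months its level was 6.60, 7.52, 7.85, 7.13 and 6.51 in HdhQ150 mice, and 6.72, 7.05, 7.96, 7.17 and 8.25 in WT mice. At 12 months it was 4.86, 4.88, 5.64, 5.65, 6.33 and 6.64 in HdhQ150 mice, and 5.39, 5.73, 5.87, 6.79 and 7.29 in WT mice. At 18 months it was 6.62, 7.36, 7.56 and 7.99 in HdhQ150 mice, and 6.64, 7.46, 7.58 and 8.25 in WT mice. The 2 HdhQ150 mice lowest in Slc17a7, 487 and 453, were also the 2 lowest in Neurod6, Tbr1 and Nrn1.

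The other 5 genes moved over a smaller range. Neurod2 ran from 7.45 to 9.02 over the 29 arrays, Fezf2 from 7.09 to 8.54, Rorb from 7.35 to 8.61 and Cux2 from 7.34 to 8.57. Emx1 was nearly flat, from 7.34 to 7.90. The spread among mice of a group was taken as the residual SD of the limma fit, pooled over the 6 groups. It was 0.802 for Slc17a7, the 7th largest of the 19938 genes, 0.664 for Neurod6 (16th), 0.631 for Tbr1 (22nd) and 0.630 for Nrn1 (23rd), against a median of 0.141 over all genes. It was 0.349 for Fezf2, 0.290 for Neurod2, 0.215 for Cux2 and 0.201 for Rorb. Emx1, with 0.138, lay just under the median gene. The 12-month groups raised the pooled value, since the SD of Slc17a7 was 1.37 in HdhQ150 and 0.85 in WT mice at 12 months and between 0.31 and 0.46 in the other 4 groups.

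**Figure D1:**
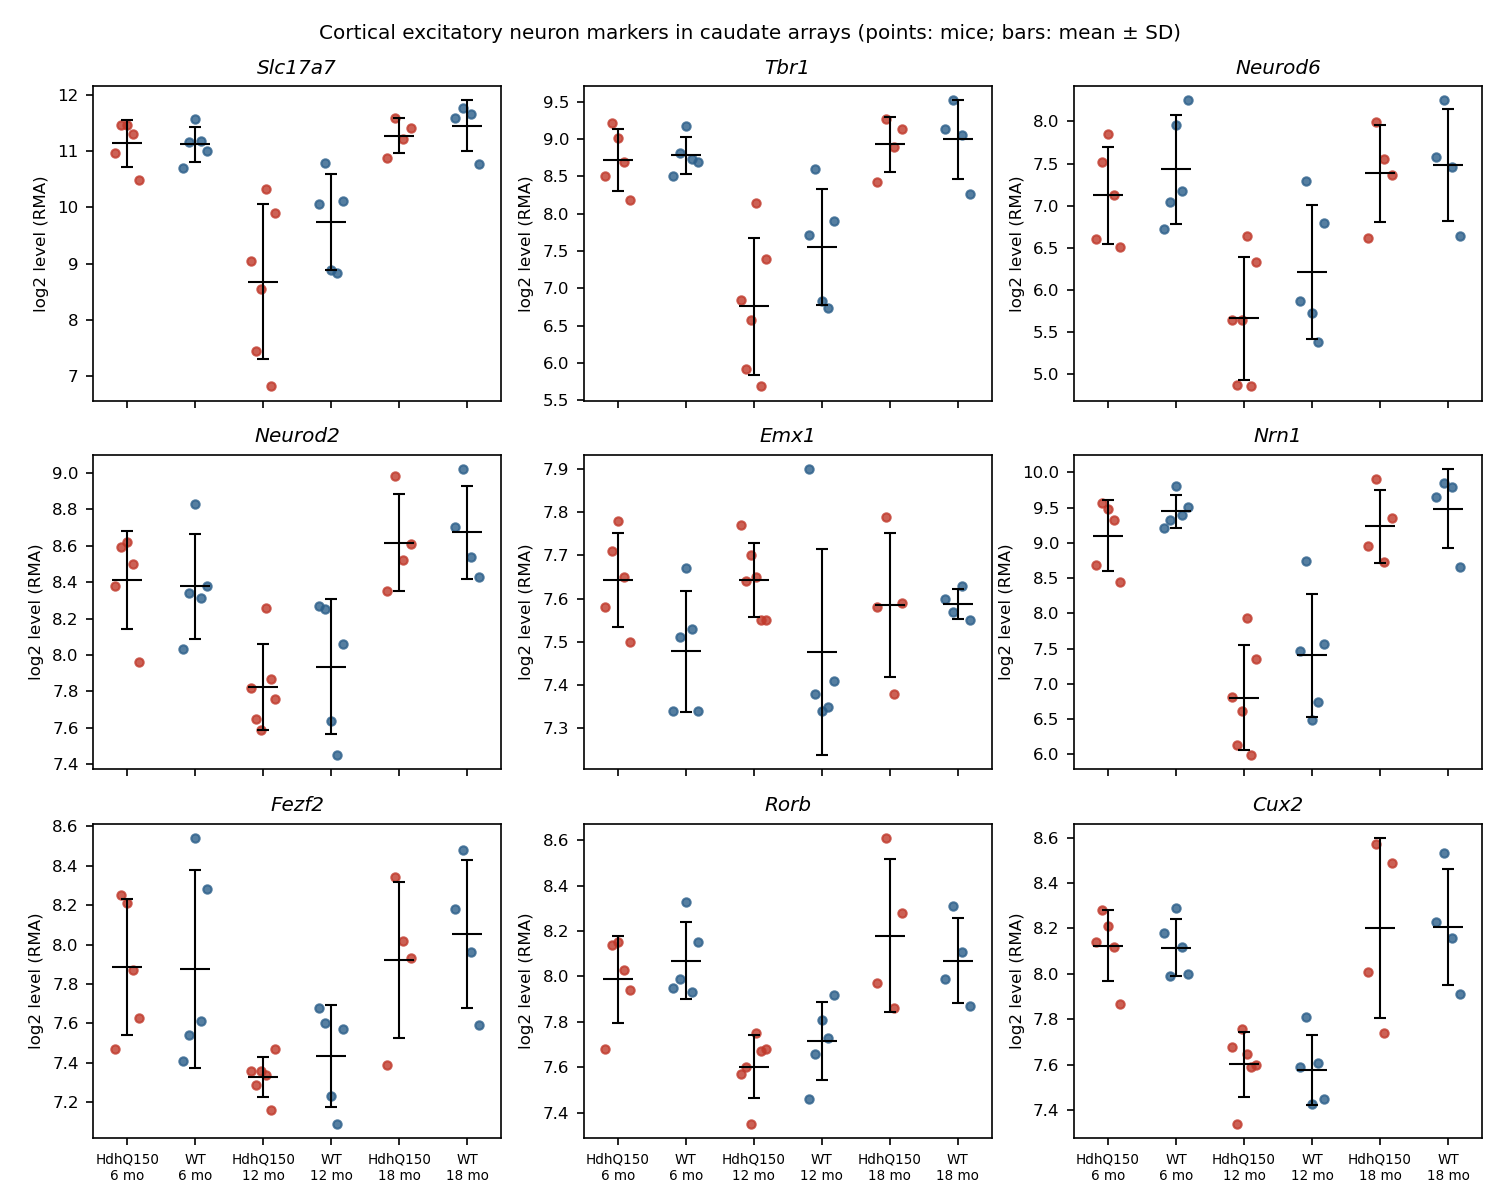
Log2 RMA level of each of the 9 genes (vertical axis, own scale in each panel) in the 6 groups, with 1 point per mouse, HdhQ150 in red and WT in blue, and bars for the group mean ± SD (n = 4 to 6). The 12-month group means lie below those of the same genotype at other ages in every panel but that of Emx1, and the spread is widest for Slc17a7 in 12-month HdhQ150 mice (6.82 to 10.33).

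Averaged over the 9 genes, each taken as its deviation from its own mean over all arrays, the HdhQ150 groups stood at 0.31 ± 0.31 at 6 months, -0.82 ± 0.45 at 12 months and 0.44 ± 0.33 at 18 months (log2, SD, n = 5, 6 and 4). The WT groups stood at 0.38 ± 0.26, -0.47 ± 0.43 and 0.52 ± 0.35 at the same ages (SD, n = 5, 5 and 4). Of the 11 mice of 12 months, 10 had a negative deviation and mouse WT-461 had one of 0.09. Of the 18 mice of the other ages, HdhQ150 mouse 1023 alone was negative, at -0.09. In bulk tissue, fewer cells of a type and less RNA per cell cannot be told apart.

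Ages were compared within each genotype in a limma fit over all genes, with 6 group means and the labelled sex, and a gene was counted as changed where its p, adjusted by Benjamini-Hochberg over the 19938 genes, was under 0.05. The labels record no dissection or hybridisation batch, so age and anything else shared by the mice of an age cannot be told apart. The comparisons with 6 and with 18 months share the 12-month arrays, and their values are set side by side for that reason.

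In HdhQ150 mice 8 of the 9 cortical genes were lower at 12 than at 6 months, all but Emx1, where 11.2% of all genes tested fell and 23.1% changed. Slc17a7 averaged 8.68 ± 1.37 at 12 months and 11.14 ± 0.41 at 6 months (SD, n = 6 and 5). It fell by 2.44 on the log2 scale (SE 0.428), which is 5.41-fold lower, with a limma adjusted p of 0.000167. Nrn1 averaged 6.81 ± 0.74 at 12 months and 9.10 ± 0.51 at 6 months and fell by 2.27, or 4.83-fold (limma adjusted p = 2.28e-05). Tbr1 averaged 6.76 ± 0.92 at 12 months and 8.72 ± 0.41 at 6 months and fell by 1.95 (limma adjusted p = 0.000146). Neurod6 fell by 1.40 (limma adjusted p = 0.00502), to 5.67 ± 0.73 at 12 months against 7.12 ± 0.58 at 6 months. These are the genes with the widest spread among the mice of a group, and the changes were larger than that spread.

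The layer genes and Neurod2 fell by less in HdhQ150 mice. Neurod2 differed by -0.58, Fezf2 by -0.55, Cux2 by -0.52 and Rorb by -0.37 (limma adjusted p from 0.00238 to 0.0355). Emx1 averaged 7.64 ± 0.08 at 12 months and 7.64 ± 0.11 at 6 months, a difference of -0.01 (limma adjusted p = 0.926). The 12- and 6-month groups did not overlap for 4 genes, Slc17a7, Tbr1, Nrn1 and Cux2, all lower at 12 months, which is so of 7.38% of all genes. With the labelled females alone, mouse 1023 among them, 4 of the 9 genes still fell, namely Slc17a7, Tbr1, Nrn1 and Cux2. That setting leaves fewer mice in the fit. Fezf2 was lost without mouse 453, 462, 487, 1003, 1016 or 1017 (limma adjusted p from 0.0521 to 0.18), and Rorb without 462, 1003 or 1016 (0.0524 to 0.0989).

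In WT mice 7 of the 9 genes were lower at 12 than at 6 months, against 12.6% of all genes that fell and 25.7% that changed. Slc17a7 averaged 9.74 ± 0.85 at 12 months and 11.13 ± 0.31 at 6 months (SD, n = 5 each), and it fell by 1.42 (SE 0.449), or 2.68-fold, with a limma adjusted p of 0.0209. Nrn1 had the largest difference, -2.07 (limma adjusted p = 0.000148), with 7.40 ± 0.88 at 12 months and 9.45 ± 0.23 at 6 months. Neurod6 fell by 1.30 and Tbr1 fell by 1.24 (limma adjusted p = 0.0112 for each). Cux2 fell by 0.54, Neurod2 fell by 0.45 and Rorb fell by 0.37 (limma adjusted p from 0.00248 to 0.0468). Fezf2 differed by -0.45 and did not pass (limma adjusted p = 0.0893), nor did Emx1 at 0.03 (limma adjusted p = 0.848). Fezf2 did pass in some alternative fits, with a lowest limma adjusted p of 0.0219.

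Of these WT calls, 3 were lost without some single mice. For Slc17a7 the limma adjusted p was 0.058 without mouse WT-488, 0.0582 without mouse WT-508 and 0.0516 with the labelled females alone. The call for Neurod2 was lost in 18 of the 29 fits that left out 1 mouse (limma adjusted p from 0.0504 to 0.139), most of all without mice WT-1011 (0.139), WT-508 (0.133) and WT-488 (0.11). Rorb was lost without mouse WT-454, WT-1011 or WT-1020 (limma adjusted p from 0.0553 to 0.108), and without both WT-454 and 1023 (-0.30, limma adjusted p = 0.111). The 12- and 6-month WT groups did not overlap for 3 genes, Nrn1, Rorb and Cux2, against 6.95% of all genes that were lower without overlap.

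At 18 months the mean levels were above those at 12 months, except for Emx1 in HdhQ150 mice. In HdhQ150 mice 7 of the 9 rose, where 4.18% of all genes rose and 5.79% changed. Slc17a7 was higher by 2.54 (limma adjusted p = 0.000825), with 11.28 ± 0.31 at 18 months and 8.68 ± 1.37 at 12 months (SD, n = 4 and 6). Nrn1 was higher by 2.38 (limma adjusted p = 0.000122), Tbr1 by 2.14 and Neurod6 by 1.57. Neurod2 rose by 0.78, Cux2 by 0.59 and Rorb by 0.55. Fezf2 differed by 0.57 without passing (limma adjusted p = 0.111), and Emx1 by -0.02. In some alternative fits Fezf2 passed, with a lowest limma adjusted p of 0.028. Slc17a7, Tbr1, Neurod2, Nrn1 and Rorb did not overlap between the 18- and 12-month groups, against 4.76% of all genes that were higher without overlap. Without HdhQ150 mouse 412, which had the highest level of its group in all 9 genes, 4 genes rose in place of 7, and Neurod6, Rorb and Cux2 were lost (limma adjusted p from 0.0501 to 0.0799).

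In WT mice 5 of the 9 rose between 12 and 18 months, where 3.81% of all genes rose and 5.87% changed. They were Nrn1 by 2.06 (limma adjusted p = 0.000645), Slc17a7 by 1.69 (limma adjusted p = 0.0288), Tbr1 by 1.42 (limma adjusted p = 0.0183), Neurod2 by 0.73 and Cux2 by 0.63. Neurod6 differed by 1.18 (limma adjusted p = 0.0797), Fezf2 by 0.61 (0.0926), Rorb by 0.34 (0.134) and Emx1 by 0.14 (0.564), none past the threshold. Over the alternative fits the lowest limma adjusted p was 0.0166 for Neurod6, 0.0111 for Fezf2, 0.0434 for Emx1 and 0.0758 for Rorb. All of them but Rorb thus passed in some fits. Neurod2 and Cux2 did not overlap between the groups, against 4.13% of all genes that were higher without overlap. The count rested on few mice. It was 3 without mouse WT-400, WT-414, WT-488 or WT-508, and 2 without mouse WT-401, and Slc17a7 and Tbr1 were lost in each of these 5 cases (limma adjusted p from 0.0756 to 0.104 and from 0.0514 to 0.0978). Neurod2 was lost as well without mouse WT-401 (0.065).

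Between 6 and 18 months none of the 9 genes changed by the limma test in either genotype, where 4.65% of all genes changed in HdhQ150 and 6.27% in WT mice. At an unadjusted p under 0.05 the count was also 0 of 9 in both. The groups overlapped for all 9 genes, while 9.32% of all genes in HdhQ150 and 9.09% in WT mice did not overlap. Differences of 18 minus 6 months ran from -0.03 to 0.20 in HdhQ150 and from -0.13 to 0.29 in WT mice. The order of Slc17a7 means was 12-month HdhQ150, 12-month WT, 6-month WT, 6-month HdhQ150, 18-month HdhQ150 and 18-month WT. Of the 5 steps between neighbours in this order, the one between the 12-month WT and 6-month WT groups passed the test and the other 4 did not.

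**Figure D2:**
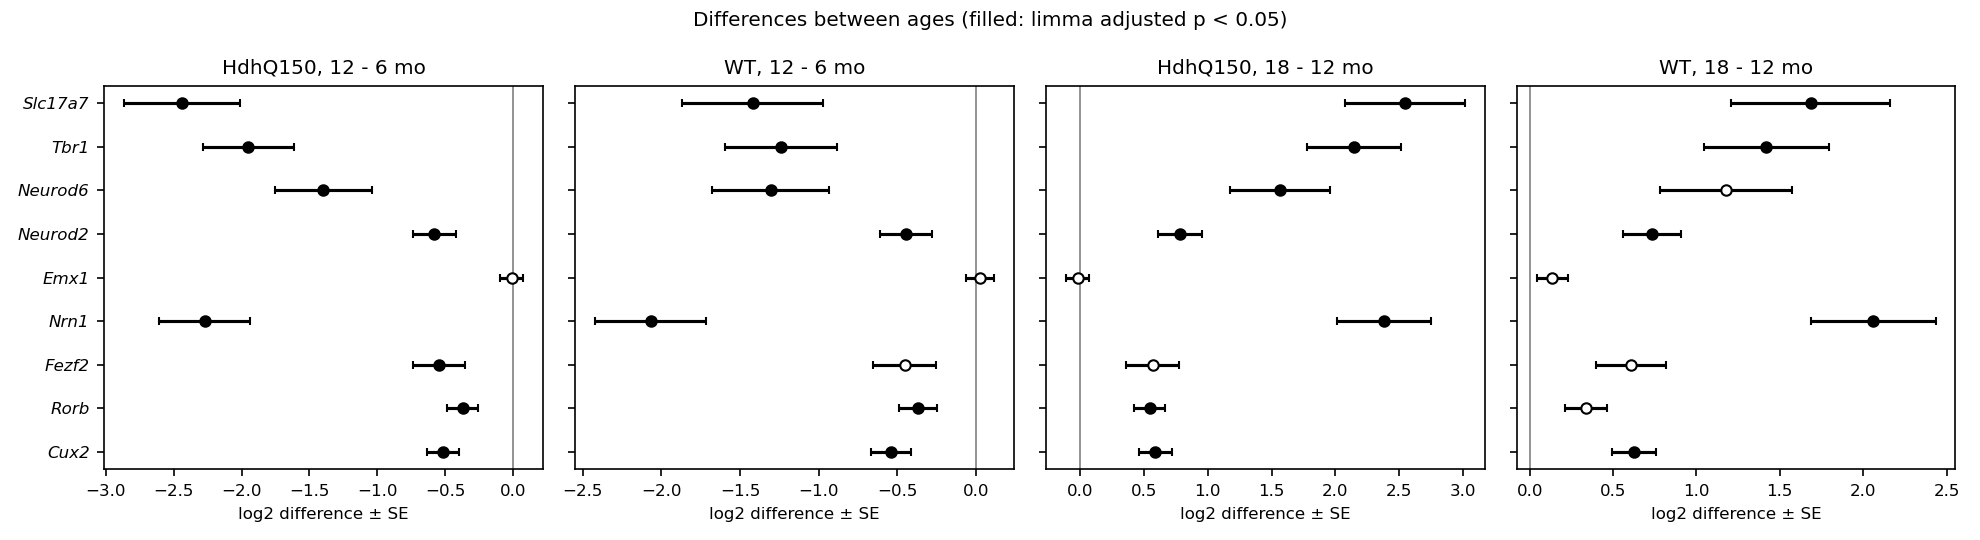
Log2 difference between ages (older minus younger, horizontal axis, ± SE) for each of the 9 genes in HdhQ150 and WT mice, with filled points where the limma adjusted p was under 0.05. Differences of 12 minus 6 months lie left of 0 and those of 18 minus 12 months right of 0 for 8 genes, while Emx1 lies near 0 (-0.01 and 0.03 for 12 minus 6 months in HdhQ150 and WT mice).

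The genotypes were then compared at each age, to see whether the cortical genes differed between HdhQ150 and WT dissections. None of the 9 genes passed the limma test at 6, 12 or 18 months, where 0.0251%, 0.938% and 0.135% of all genes passed. At an unadjusted p under 0.05 the counts were 1, 2 and 0 of 9. The groups of the 2 genotypes overlapped for all 9 genes at all 3 ages, while 3.18%, 1.59% and 3.7% of all genes did not overlap at these ages.

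The difference at 12 months was the largest for Slc17a7. It averaged 8.68 ± 1.37 in HdhQ150 mice and 9.74 ± 0.85 in WT mice (SD, n = 6 and 5), a difference of -1.03 with an SE of 0.428. Its unadjusted limma p was 0.0222 and its adjusted p 0.406, and without HdhQ150 mouse 487 the difference was -0.61. Tbr1 differed by -0.79 (limma adjusted p = 0.434), Nrn1 by -0.58 and Neurod6 by -0.49, all lower in HdhQ150 mice and within the spread of the 12-month groups. Neurod2, Fezf2 and Rorb differed by -0.11 to -0.10, and Cux2 by 0.03. Without mouse WT-461 the differences were -0.25 for Neurod6 and -0.26 for Nrn1, and Neurod6 stood at -0.28 without HdhQ150 mouse 487.

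Emx1 differed the other way. At 12 months it averaged 7.64 ± 0.08 in HdhQ150 mice and 7.48 ± 0.24 in WT mice (SD, n = 6 and 5), a difference of 0.15 (limma adjusted p = 0.656). Mouse WT-454 alone measured 7.90, above the other 4 WT mice of that age (7.34 to 7.41). Without mice WT-454 and 1023 the difference was 0.27 with a limma adjusted p of 0.0457, so the gene then passed, while without mouse WT-454 alone it was 0.27 with an adjusted p of 0.0546. At 6 months Emx1 averaged 7.64 ± 0.11 in HdhQ150 and 7.48 ± 0.14 in WT mice (SD, n = 5 each), a difference of 0.19 (limma adjusted p = 0.329).

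At 6 months Slc17a7 differed by -0.02 between HdhQ150 and WT mice, with Neurod6 at -0.40 and Nrn1 at -0.37. At 18 months Slc17a7 differed by -0.18 and Nrn1 by -0.26. None of the 9 genes passed for a change of the genotype difference between ages either. Of all genes 0.00502%, which is 1 gene, passed for 12 minus 6 months, and 0% passed for 18 minus 6 and for 18 minus 12 months. For Slc17a7 the genotype difference at 12 months minus that at 6 months was -1.02 with an SE of 0.625 (limma adjusted p = 0.813), and -0.56 without HdhQ150 mouse 487. The SEs of Slc17a7 are several times those of a typical gene, so differences of this size are within what these group sizes leave unresolved.

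**Figure D3:**
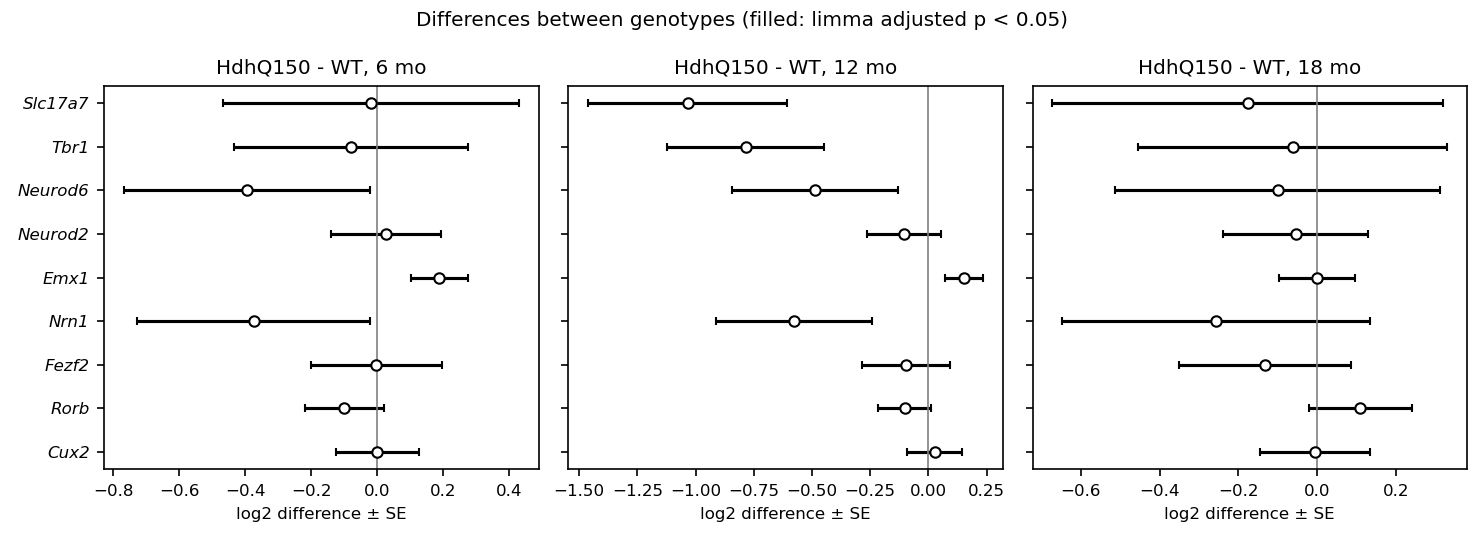
Log2 difference of HdhQ150 minus WT mice (horizontal axis, ± SE) for each of the 9 genes at 6, 12 and 18 months, with open points where the limma adjusted p was 0.05 or more. All 27 points are open, and the one farthest from 0 is Slc17a7 at 12 months (-1.03).

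A further fit asked which genes followed Slc17a7 from mouse to mouse. It added the Slc17a7 level of each array to the group means and sex, so that its slope, the log2 change of a gene per log2 unit of Slc17a7, describes differences among mice of the same age and genotype. Of the 8 other cortical genes 4 had a slope past the limma threshold, all positive, where 0.878% of the 19937 genes tested had a positive slope past it and 0.918% passed in either direction. Tbr1 had a slope of 0.76 (SE 0.0438, limma adjusted p = 3.66e-12), and its p was the smallest of all genes. Nrn1 followed at 0.70 (SE 0.0691, limma adjusted p = 3.7e-07) and Neurod6 at 0.68 (SE 0.0915, limma adjusted p = 9.88e-05), and they ranked 4th and 9th by p. All 3 slopes were under 1.

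Neurod2 had a smaller slope, 0.23 (limma adjusted p = 0.039). It missed the threshold with mouse 1023 entered as male (0.0527), without mice WT-454 and 1023 (0.0867) and with the labelled females alone (0.141). It was also lost in 11 of the 29 fits that left out 1 mouse (0.0514 to 0.192), the highest of these without HdhQ150 mouse 464, and without mouse 487 the slope was 0.34. Fezf2 had a slope of 0.21 (limma adjusted p = 0.213), Cux2 of 0.11 (0.376), Emx1 of 0.06 (0.504) and Rorb of 0.06 (0.701). The median over the 8 genes was 0.22, and over all genes it was 0.002.

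Slopes were also estimated in parts of the series. In the 12-month arrays alone the slopes were 0.71 for Tbr1, 0.63 for Nrn1 and 0.58 for Neurod6, and 3 of the 8 genes passed. In the 6- and 18-month arrays alone they were 0.996 for Tbr1, 1.11 for Nrn1 and 1.29 for Neurod6, with 0.63 for Neurod2 and 0.83 for Fezf2, and these 5 passed. The difference between these slopes was not tested. Both fits were added after the data were seen. Over all alternatives, these fits among them, 18 to 653 of all genes passed. The counts of 3 and 5 therefore cannot be set against each other. Without the 2 arrays farthest from their group mean in Slc17a7, HdhQ150 mice 487 (-1.86) and 464 (1.65) of 12 months, 4 genes still passed.

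**Figure D4:**
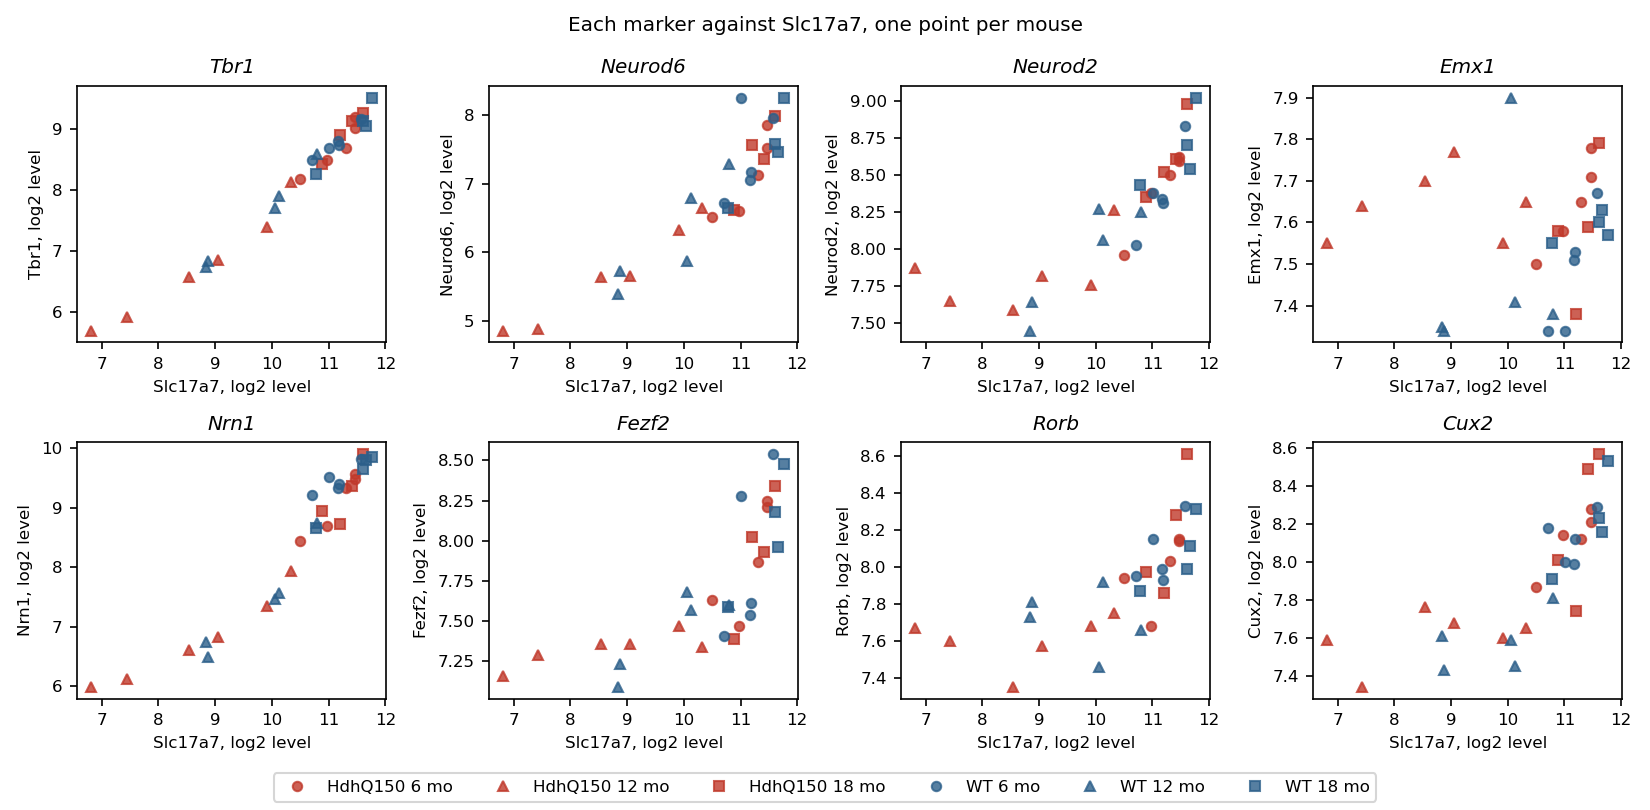
Log2 level of each of the other 8 genes (vertical axis) against that of Slc17a7 (horizontal axis), with 1 point per mouse, colour for genotype and marker shape for age. Tbr1, Nrn1 and Neurod6 rise steadily from mouse 487 (Slc17a7 at 6.82) to mouse WT-401 (11.77), Neurod2, Fezf2, Rorb and Cux2 rise mainly above a Slc17a7 level of about 10, and Emx1 shows no such course.

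Among genes outside the 9, those whose mouse-to-mouse pattern was most like Slc17a7, by the smallest p with a positive slope over the 29 arrays, were Vxn, Nr4a2, Nptx1, Cck, Olfm1, Hs3st2, Cckbr, Slc6a7, Ptpru and Ccn3. Vxn had a slope of 0.77, Cck, which encodes the neuropeptide cholecystokinin, of 0.63, and Nr4a2, a nuclear receptor, of 0.58. Nptx1, a neuronal pentraxin, had a slope of 0.52, and Cckbr, a cholecystokinin receptor, of 0.36. The remaining 5 lay between 0.21 (Slc6a7, a proline transporter) and 0.38 (Ccn3, a matricellular protein). Limma adjusted p over the 10 ran from 3.84e-10 to 0.000131. All 10 were lower at 12 than at 6 months in HdhQ150 mice and 7 in WT mice, where 11.2% and 12.6% of all genes fell. Between genotypes at 12 months 0 of the 10 passed, against 0.938% of all genes. The 10 were chosen by slope on the same 29 arrays.

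Only 8 genes passed with a negative slope. The 5 named genes with the smallest p were Cfap54, a ciliary protein gene (-0.37, limma adjusted p = 0.00712), Rbms3 (-0.16), Serinc5 (-0.13), Vmn1r25 (-0.18) and Slc4a4, a sodium bicarbonate cotransporter (-0.13). Their adjusted p ran from 0.00712 to 0.0258.

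A second list of 24 cortical excitatory and layer genes held 21 with a tested probe set, and 20 of the 21 had a positive slope on Slc17a7 (median 0.07). The 6 that passed were Nr4a2, Cplx3 (complexin 3, 0.22), Ccn2 (0.26), Sv2b (a synaptic vesicle protein, 0.19), Rprm (0.17) and Slc30a3 (ZnT3, which loads zinc into vesicles, 0.27). Of all genes tested 0.878% passed with a positive slope. Between 6 and 12 months 11 of the 21 fell and 1 rose in HdhQ150 mice (median -0.21), and 9 fell and 1 rose in WT mice (median -0.22), with medians over all genes of 0.04 and 0.04. Of all genes 11.2% fell and 11.9% rose in HdhQ150 mice, and 12.6% fell and 13.1% rose in WT mice. Rasgrf2, a Ras exchange factor of upper layers, fell by 1.29 in HdhQ150 mice and fell by 1.30 in WT mice (limma adjusted p = 2.55e-06 and 6.15e-06). Slc30a3 fell by 1.11 in HdhQ150 mice and fell by 0.87 in WT mice (limma adjusted p = 0.000121 and 0.00215). Syt6, a synaptotagmin, was the member that rose, by 0.30 in HdhQ150 and by 0.39 in WT mice (limma adjusted p = 0.0239 and 0.00535). Lamp5, Etv1, Rspo1 and Nxph4 did not pass in either genotype. At 18 against 12 months 6 rose and 1 fell in HdhQ150 and 7 rose and 1 fell in WT mice. Of all genes 4.18% rose and 1.61% fell in HdhQ150 mice, and 3.81% rose and 2.07% fell in WT mice.

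The 18 measured markers of striatal projection neurons ran the other way with age. Between 6 and 12 months 12 rose and 0 fell in HdhQ150 mice (median 0.33), and 15 rose and 0 fell in WT mice (median 0.43). Of all genes 11.9% rose in HdhQ150 and 13.1% in WT mice, with medians of 0.04 in both. Drd1, the D1 dopamine receptor, rose by 0.39 in HdhQ150 and by 0.47 in WT mice (limma adjusted p = 0.00304 and 0.000997). Between 12 and 18 months 17 of 18 fell in HdhQ150 mice (median -0.68) and 16 of 18 in WT mice (median -0.54), where 1.61% and 2.07% of all genes fell. Averaged over the list, the HdhQ150 groups stood at 10.34, 10.68 and 9.99 at 6, 12 and 18 months, and the WT groups at 10.52, 10.94 and 10.37. In the fit on Slc17a7 none of the 18 passed the limma test (2 at an unadjusted p under 0.05), 3 had a positive slope, and the median was -0.06.

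Markers of other cells and neighbouring tissue were read against the shares of all genes at 12 against 6 months, of which 11.2% fell and 11.9% rose in HdhQ150 mice and 12.6% fell and 13.1% rose in WT mice. Of 7 thalamic markers 3 fell in HdhQ150 and 4 in WT mice at 12 against 6 months, among them Slc17a6 (VGLUT2), which fell by 0.93 in HdhQ150 mice and fell by 1.30 in WT mice (limma adjusted p = 0.0068 and 0.000614). Yet all 7 had a slope on Slc17a7 below 0 and none passed (0 at an unadjusted p under 0.05, median -0.11). Averaged over the 7, HdhQ150 groups stood at 7.53, 6.98 and 7.49 at the successive ages and WT groups at 7.70, 6.97 and 7.41. The 12-month WT arrays spanned only 6.96 to 6.99 on this average, while their Slc17a7 spanned 8.84 to 10.79.

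Of 10 choroid plexus markers none passed in any comparison of ages or in the fit on Slc17a7, with the number at an unadjusted p under 0.05 between 0 and 2. Single arrays stood apart all the same. Averaged over the 10, the 6-month mice 1017, WT-1002 and WT-1020 stood at 7.75, 7.98 and 7.92, with mouse WT-454 next at 7.14. Mice 1017, WT-1002 and WT-1020 also stood at 7.97, 8.17 and 8.35 on the thalamic average, and the 6-month thalamic averages include them. The 18-month mice WT-431 and HdhQ150 383 were high on the thalamic average too, at 8.03 and 7.83. On the choroid plexus average they stood at 6.77 and 6.98. Ttr ran from 7.36 to 12.86 over all 29 arrays. Set against the shares of all genes given above, counts of 1 or 2 genes in lists this short show nothing particular to a list. Of 5 measured hippocampal markers 1 fell at 12 against 6 months in WT mice and none in HdhQ150 mice, and none passed on Slc17a7. Of 11 interneuron markers Vip alone had a slope past the threshold (0.30, limma adjusted p = 0.0301), and at 12 against 6 months 5 fell in HdhQ150 mice, with 1 rising and 1 falling in WT mice. Of 8 astrocyte markers 5 fell in HdhQ150 and 4 in WT mice at 12 against 6 months. Of 7 oligodendrocyte markers 4 rose in HdhQ150 and 2 in WT mice, and of 7 microglia markers 2 fell in HdhQ150 and 0 changed in WT mice. No astrocyte, oligodendrocyte or microglia marker passed on Slc17a7. These lists were written with results of these data known and serve as description.

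**Figure D5:**
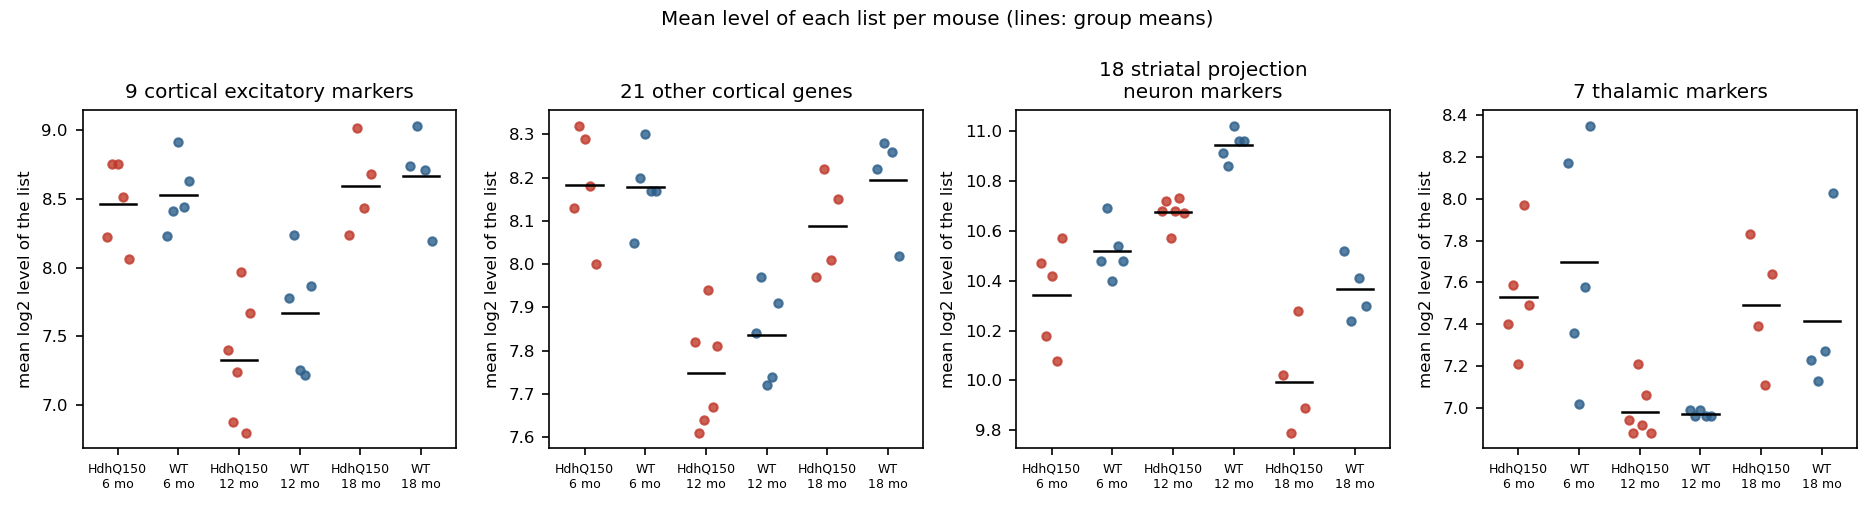
Mean log2 level per mouse (vertical axis, own scale in each panel) of the 9 cortical excitatory genes, 21 other cortical genes, 18 striatal projection neuron markers and 7 thalamic markers in the 6 groups, with lines for group means. At 12 months both cortical lists and the thalamic list are low while the striatal list is high (10.68 in HdhQ150 and 10.94 in WT mice).

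How many genes of the whole table passed was compared with and without Slc17a7 as a term. Between genotypes 6 genes passed at 6 months with it and 5 without it, of which 5 were shared. At 12 months 187 passed either way, with 128 shared, and at 18 months 23 passed with the term and 27 without, with 23 shared. The term mattered more between ages. With it 499 genes passed for 12 minus 6 months in HdhQ150 mice, against 4599 without it, and 474 were shared. In WT mice 3503 passed with it and 5121 without it, and 3118 were shared. For 18 minus 12 months 37 passed with it and 1154 without it in HdhQ150 mice. In WT mice the shares of all genes were 2.08% with it and 5.87% without it. For 18 minus 6 months, where Slc17a7 did not pass, 1127 passed with it and 927 without it in HdhQ150 mice, and 1350 and 1250 in WT mice. Since Slc17a7 itself differed between ages, the term also widened the errors. The median SE for 12 minus 6 months was 0.124 with it and 0.0855 without it in HdhQ150 mice, so a call lost under it does not by itself show a smaller difference. The fits between ages with this term were added after the data were seen.

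The medians of the striatal markers kept their signs under this term, and in the steps between 12 months and the other ages fewer of them passed. For 12 minus 6 months in HdhQ150 mice 0 of the 18 passed with it and 12 without it, and their median was 0.25 with it and 0.33 without it, while their median SE was 0.133 and 0.0916. In WT mice 12 rose with it and 15 without it, with medians of 0.39 and 0.43. For 18 minus 12 months 4 fell with it and 17 without it in HdhQ150 mice (medians -0.56 and -0.68), and 13 and 16 in WT mice (medians -0.52 and -0.54). Between genotypes the median of the striatal markers was lower in HdhQ150 mice with and without the term. At 12 months 6 fell with it and 5 without it (medians -0.31 and -0.26), and at 18 months 4 fell either way (medians -0.35 and -0.34). The medians of the second cortical list for 12 minus 6 months were nearer 0 with the term, at -0.11 with it and -0.21 without it in HdhQ150 mice, and at -0.07 and -0.22 in WT mice. Of its 21 genes in HdhQ150 mice, 0 rose and 1 fell with the term, and 1 rose and 11 fell without it. In WT mice 3 rose and 7 fell with the term, and 1 rose and 9 fell without it, so the WT calls went both ways.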

How the data were processed

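RNA was isolated by TRIzol-chloroform from caudate tissue and biotin-labelled for Affymetrix arrays, per the labels. The deposited values are log2 expression levels. The submitters' processing notes name RMA and Expression Console, with no version, and the options used were not given in the sources used here.

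The table has 35556 probe sets, of which 21789 carry 1 symbol in the platform annotation, 1621 several and 12146 no name used here. Entrez IDs tied 21698 of the 21789 to the RefSeq gene table (GRCm38.p6), used for names. Keeping the highest-mean probe set of each gene gave 19938 genes, dim ones included. No 2 arrays were identical.

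The test was limma 3.58.1 (R 4.3.3; lmFit, contrasts.fit and eBayes with trend) over the 29 arrays jointly, with 6 group means and the labelled sex as terms and 22 residual degrees of freedom. P-values are two-sided, with Benjamini-Hochberg adjustment over every gene and a threshold of 0.05. Slopes came from the same model with each array's Slc17a7 level added, over the other 19937 genes. Mouse numbers mark separate animals and pair no samples. The scripts were tested on simulated data.

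The 9 genes, the marker lists and the tests were chosen with earlier results of these data known. The text names all 9 genes, up to 6 of the second cortical list by smallest p on Slc17a7, up to 4 of each other list, and the 10 genes of smallest p with a positive and 5 with a negative slope, predicted genes skipped. Rasgrf2, Syt6, Lamp5, Etv1, Rspo1 and Nxph4 were named after their values were seen. Alternatives left out the sex term, entered mouse 1023 as male, fitted only the compared groups, weighted arrays, kept the brighter genes or all probe sets, used robust eBayes, centred arrays or left arrays out. Another put the mean of Neurod6 and Neurod2 in place of Slc17a7 in the slope fit. Fits of females alone went by the label and so kept mouse 1023. These fits and those of some ages were added after the data were seen.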

Additional observations from a re-analysis of the deposited data

Results flagged for a closer look

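For each of the 9 genes the highest and lowest mouse of each of the 6 groups were set against the nearest other mouse. That makes 54 tests, of which chance alone marks about 1 in 20, and 2 were marked. Emx1 measured 7.90 in mouse WT-454 of the 12-month WT group, where the nearest other mouse measured 7.41, so the gap took up 0.875 of the range of the 5 mice. This array also had the lowest mean correlation with its group, 0.945. Nrn1 measured 8.66 in mouse WT-431 of the 18-month WT group, where the nearest other mouse measured 9.65, a gap of 0.832 of the range of the 4 mice. The same mouse was the lowest of its group in Slc17a7 (10.78), Tbr1 (8.27) and Neurod6 (6.64).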

How the results depend on the processing

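Directions of every called difference between ages among the 9 genes stayed the same under all alternatives that tested them. The fit with Slc17a7 as a term was not read for the 9 genes. Leaving out 1 mouse at a time, the number of genes that fell at 12 against 6 months was 6 to 8 in HdhQ150 and 5 to 7 in WT mice, the number that rose at 18 against 12 months was 4 to 8 in HdhQ150 and 2 to 7 in WT mice, and 3 to 4 genes passed on Slc17a7, with 5 passing in the 6- and 18-month arrays alone. With the labelled females alone 4 genes fell at 12 months in HdhQ150 mice, a fit with fewer mice. Between genotypes at 12 months 1 gene passed, Emx1, once arrays were weighted, and again 1, also Emx1, once mice WT-454 and 1023 were left out. The cause was not tested. None of the 9 genes passed between genotypes at 6 or 18 months under any alternative that tested them. Counts over all genes moved more widely. At 12 months 103 to 656 genes passed between genotypes over the alternatives (115 to 440 without 1 mouse), at 6 months 2 to 1330 (3 to 188), at 18 months 1 to 43 (15 to 41), and 18 to 653 passed on Slc17a7 (75 to 416). The alternatives on Slc17a7 take in a fit with the mean of Neurod6 and Neurod2 as the term in its place. For 12 minus 6 months the counts were 499 to 7098 in HdhQ150 and 2434 to 7434 in WT mice, and for 18 minus 12 months 37 to 2171 in HdhQ150 mice. They reached 2027 in WT mice for 18 minus 12 months, with 696 to 1437 without 1 mouse, and the fit with Slc17a7 as a term gave the lowest share, 2.08%. For 18 minus 6 months they were 598 to 2489 in HdhQ150 and 248 to 2395 in WT mice. Alternatives with females alone, some ages alone or the Slc17a7 term between ages were chosen after the data were seen.

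Differences that changed sign were all uncalled and near 0, and the cause was not tested. For HdhQ150 minus WT at 6 months, Slc17a7 was 0.011 with no sex term or mouse 1023 as male, 0.007 in the groups alone, 0.124 without mice WT-454 and 1023, and 0.086 once arrays were weighted. Tbr1 was 0.043 with array weights and 0.045 without those mice, Neurod2 -0.143 and Cux2 -0.056 with females alone. Fezf2 was 0.008 with no sex term or mouse 1023 as male, 0.205 with array weights, 0.049 without those mice and 0.001 with centred arrays. At 12 months Neurod2 was 0.076 with array weights, 0.028 without those mice and 0.021 with females alone, and Fezf2 was 0.005 with array weights and 0.011 without those mice. Emx1 at 18 months was 0.002 with centred arrays. The change of the Slc17a7 genotype difference from 6 to 18 months was 0.021 with females alone. Slc17a7 in HdhQ150 mice at 18 minus 6 months was -0.108 without those mice. Emx1 at 12 minus 6 months was 0.003 with no sex term and 0.008 with mouse 1023 as male in HdhQ150 mice. In WT mice it was -0.066 with array weights, -0.1 without those mice, -0.024 with centred arrays and -0.141 with females alone, and in HdhQ150 mice at 18 minus 12 months it was 0.001 with centred arrays.

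Without 1 mouse at a time, the differences of HdhQ150 minus WT at 6 months ran from -0.183 to 0.145 for Slc17a7, -0.287 to 0.057 for Tbr1, -0.055 to 0.157 for Neurod2, -0.151 to 0.183 for Fezf2 and -0.062 to 0.062 for Cux2. At 12 months they ran from -0.223 to 0.016 for Neurod2, -0.181 to 0.004 for Fezf2 and -0.012 to 0.082 for Cux2. At 18 months they ran from -0.303 to 0.114 for Tbr1, -0.382 to 0.157 for Neurod6, -0.179 to 0.06 for Neurod2, -0.071 to 0.066 for Emx1, -0.286 to 0.044 for Fezf2, -0.034 to 0.216 for Rorb and -0.129 to 0.149 for Cux2. The change of the Slc17a7 genotype difference from 6 to 18 months ran from -0.383 to 0.007, and Slc17a7 at 18 minus 6 months in HdhQ150 mice from -0.072 to 0.238. Emx1 ran from -0.043 to 0.027 (12 minus 6 months) and -0.087 to 0.049 (18 minus 12 months) in HdhQ150 mice, and from -0.096 to 0.095 (12 minus 6 months) in WT mice.

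No paired analysis was possible because mouse numbers differ between groups. Other probe sets of a gene gave no value, since each of the 9 has 1. The number of mice, the absence of recorded batches and the wide spread of Slc17a7 limit what the comparisons can resolve.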
